A study of Mus musculus with 20 samples.

Results

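A set of 10 genes of tissue macrophages were followed across embryonic dorsal root ganglia (DRG): Csf1r, Cx3cr1, C1qa, C1qb, C1qc, Aif1, Mrc1, Cd68, Ptprc and Tyrobp. They were listed by name as genes of these cells, and all 10 were found among the 37620 genes of the expression table. Whole DRG were taken from C57Bl6 mouse embryos at E18.5, and both levels came from each of 10 donors, 5 male (M1, M3, M5, M7 and M8) and 5 female (F3, F7, F8, F9 and F10). Lumbar DRG were the ganglia at L4-L5 and sacral DRG those at L6-S1, which gave 20 libraries in 4 groups of 5. The study compared the levels because L6-S1 holds the sensory neurons of the pelvic organs, and it asked whether the transcriptome differed between levels and between sexes before birth. The ganglia were not sorted into cell types, and the labels name the donor embryos but not their litters.

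Resident macrophages settle in tissues during embryonic life, depend on the receptor tyrosine kinase encoded by Csf1r, and engulf dying cells and debris. In sensory ganglia they lie close to neuron cell bodies and along blood vessels and respond to nerve injury. The genes examined cover their growth factor receptor (Csf1r), the receptor for the neuronal chemokine fractalkine (Cx3cr1), the 3 chains of the complement recognition protein C1q (C1qa, C1qb, C1qc), the mannose scavenger receptor CD206 (Mrc1), the lysosomal glycoprotein CD68 (Cd68), the activating adaptor DAP12 (Tyrobp), the calcium-binding protein IBA1 (Aif1) and the pan-leukocyte phosphatase CD45 (Ptprc).

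Expression was given as log2 RPKM, reads scaled to gene length and to library size, so levels of different genes can be compared roughly. The cDNA was amplified and only uniquely mapped reads were counted. Whether these steps act unequally on different genes was not tested. Each library had between 19403023 and 39257771 reads in the genes whose whole reads could be recovered from the values, of which 18.1% to 61.4% came from mitochondrial ribosomal RNA (rRNA). DRG markers were high at both levels: Prph, Snap25 and Tubb3 of sensory neurons had mean levels of 7.58, 7.08 and 7.03 log2 RPKM, and Fabp7 of satellite glia had 7.30.

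The macrophage genes were measured at low to moderate levels, far below these neuronal and glial genes. Of the 10 genes, 9 had reads in all 20 libraries, and C1qa had none in 1. Together they held 1116 to 4131 reads per library, or 0.00469% to 0.0181% of the recovered reads. C1qb stood highest, with a mean level of 3.04 ± 0.31 log2 RPKM (SD, n = 20 libraries), which is 8.25 RPKM and the 86.3rd percentile of the 29049 genes with a value. Mrc1 followed at 2.18 ± 0.51 log2 RPKM, C1qc at 2.15 ± 0.44, Cd68 at 1.96 ± 0.63, Tyrobp at 1.85 ± 0.69 and Csf1r at 1.58 ± 0.28. Cx3cr1 was lower, at 0.37 ± 0.47 log2 RPKM. Ptprc, C1qa and Aif1 were below 1 RPKM on average, at -1.29 ± 0.65, -1.37 ± 1.39 and -2.27 ± 1.11 log2 RPKM.

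This order had 3 clear steps. C1qb exceeded Mrc1 in 20 of 20 libraries, by 0.86 ± 0.46 on the log2 scale, Csf1r exceeded Cx3cr1 in 20 of 20, by 1.21 ± 0.39, and Cx3cr1 exceeded Ptprc in 20 of 20, by 1.66 ± 0.58. Between these steps neighbours did not differ beyond the SD of their difference: Mrc1 was above C1qc in 10 of 20 libraries, C1qc above Cd68 in 15, Cd68 above Tyrobp in 13, Tyrobp above Csf1r in 14, Ptprc above C1qa in 10 and C1qa above Aif1 in 15. Exons of Csf1r overlap those of Hmgxb3 on the other strand, and whether the counting used strand is not stated, so reads there cannot be told apart. The gene Mir511 lies within Mrc1 but overlaps none of its exons.

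**Figure D1:**
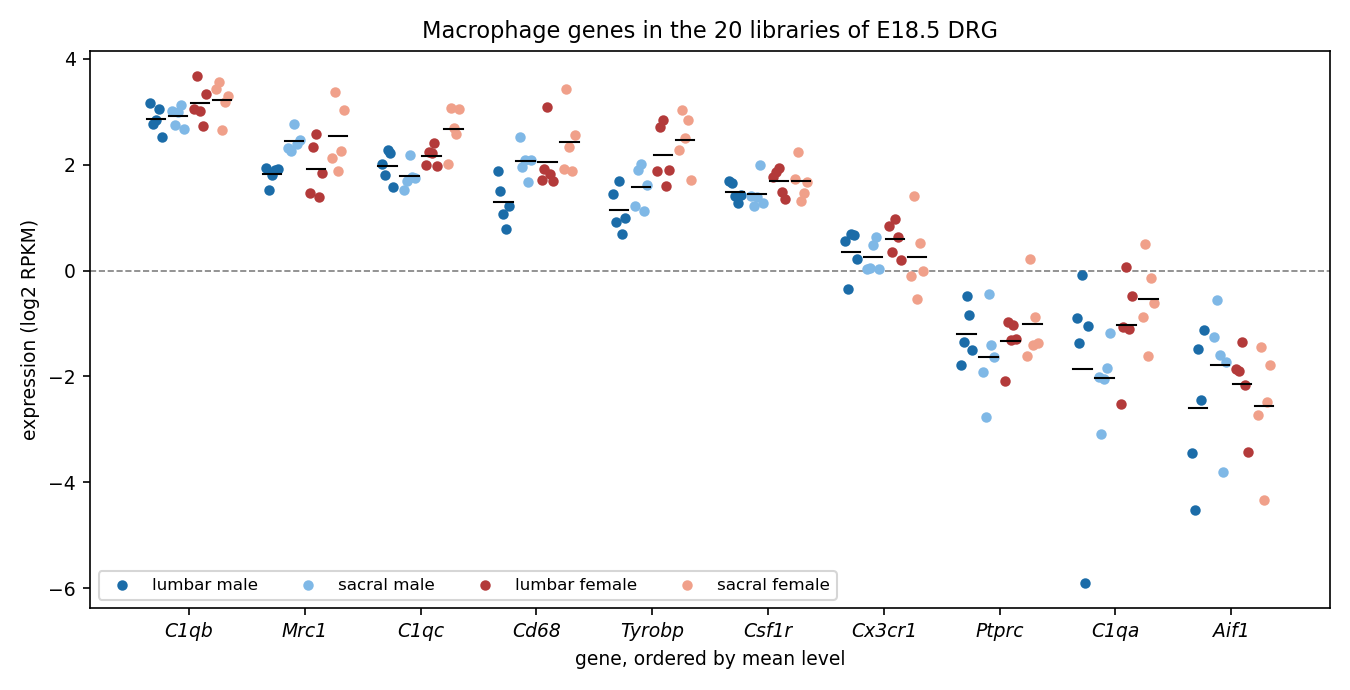
Expression (log2 RPKM) of the 10 macrophage genes, ordered by mean level, with 1 point per library, colour for each of the 4 groups of 5 libraries and a black bar at each group mean. C1qb lies highest, 6 genes lie above 1 RPKM (the dashed line at 0) in all 20 libraries, and Ptprc, C1qa and Aif1 lie mostly below it.

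The C1q chains were unequal. C1qa, C1qb and C1qc are neighbours on chromosome 4 (mm9, minus strand), at 136451832-136454718, 136436044-136442102 and 136445719-136448980. Their products join into 1 protein in equal numbers. Of the summed RPKM of the 3 genes, C1qb made up 62.4% ± 6.94 (SD, n = 20 libraries), C1qc 33.9% ± 6.39 and C1qa 3.70% ± 2.03. Over all libraries this rested on 5263 reads of C1qb, 5064 of C1qc and 306 of C1qa, from 0 to 45 per library for C1qa. Whether unique mapping or the annotation lowers the value of C1qa was not tested. The lumbar library of M7 had 0 reads of C1qa, which allows up to 3 reads by counting error alone.

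Many macrophage genes carry a control element in their promoters, a purine-rich stretch with the letters GAGGAA that the transcription factor PU.1, the product of Spi1, is known to bind. RefSeq windows (GRCm38.p6) from 250 bases before to 50 after the start site were matched for 7 of the 10 genes, and Csf1r, C1qa and Tyrobp had none. GAGGAA, read on either strand, was present in 28.3% of all 32851 windows and in 6 of the 8 windows of the 7 matched genes. These windows belonged to 6 genes (Aif1, C1qb, C1qc, Cd68, Mrc1 and Ptprc, not Cx3cr1). The longer form GAGGAAGT, of which GAGGAA is a part, was present in 3.20% of all windows and in 1 of the 8, a window of C1qc. The stretches that hold these letters in Mrc1, the gene that passed the test of level, C1qc, the gene that passed a test of sex, and C1qb, the most abundant, are shown 5′ to 3′ on the strand of the gene, with GAGGAA or its reverse complement TTCCTC in capitals. Such a match describes the sequence and is not evidence of binding.
Mrc1, plus strand, chr2:14229214-14229413, the 200 bases before the start site: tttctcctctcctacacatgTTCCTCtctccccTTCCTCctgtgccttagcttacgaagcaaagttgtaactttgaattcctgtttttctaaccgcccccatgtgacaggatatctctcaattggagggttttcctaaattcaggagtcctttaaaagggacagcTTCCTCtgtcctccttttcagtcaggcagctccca
C1qc, minus strand, chr4:136893025-136893124, the 100 bases that end 111 before the start site: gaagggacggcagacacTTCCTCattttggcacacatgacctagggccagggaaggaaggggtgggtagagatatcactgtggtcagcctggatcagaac
C1qb, minus strand, chr4:136886201-136886300, the 100 bases before the start site: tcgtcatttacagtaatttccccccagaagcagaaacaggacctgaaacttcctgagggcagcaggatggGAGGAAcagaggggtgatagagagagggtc

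Sacral and lumbar DRG of the same donors were compared to find genes that distinguish the levels. Mrc1 was upregulated in sacral DRG, and it was the only one of the 7 tested macrophage genes that passed. The 7 were those whose mean reached 1 RPKM in at least 1 group, which left out C1qa, Aif1 and Ptprc. Among all 14529 genes tested 6.73% passed at an adjusted p of at most 0.05 (limma with donor as a block, Benjamini-Hochberg adjustment), and 2.7% passed as higher in sacral DRG. The 7 genes had a median difference, sacral minus lumbar, of 0.16 on the log2 scale, against -0.05 for all genes tested. More macrophages, more RNA per macrophage, RNA from other cells and a smaller share of neuron and glia RNA cannot be told apart in whole ganglia.

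Mrc1 in the lumbar DRG of the male donors M1, M3, M5, M7 and M8 was 1.95, 1.53, 1.81, 1.91 and 1.92 log2 RPKM, and in their sacral DRG it was 2.31, 2.26, 2.77, 2.39 and 2.47. In the lumbar DRG of the female donors F3, F7, F8, F9 and F10 it was 1.47, 2.33, 2.58, 1.38 and 1.84, and in their sacral DRG it was 2.12, 3.37, 1.89, 2.27 and 3.03. In males each sacral value was above every lumbar value, as in 0.991% of all tested genes, whereas in females the levels overlapped, with lumbar F7 and F8 above several sacral values, and sacral F8 was the lowest of its group. Sacral DRG were higher in 9 of 10 donors, all but F8; 4.68% of all tested genes were higher in at least 9. The difference was 0.62 ± 0.15 (log2, SE; 1.53-fold), with a limma adjusted p of 0.0215. It was nearly equal in the sexes, at 0.62 in both males and females (SE 0.22 each, from a spread shared by all groups). The donor differences themselves had an SD of 0.24 in males and 0.76 in females. Neither sex passed alone (limma adjusted p 0.225 and 0.162). Mrc1 no longer passed without donor M5 (0.57, adjusted p 0.0761), without F10 (0.54, 0.0737) or without both M5 and F7 (0.52, 0.122), nor with no filter on low genes (0.0581) or no donor block (0.107), while without F8 the difference was 0.78 (0.000574).

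Cd68 had a difference of like size that did not pass. Its values in lumbar DRG of the male donors, in the same order, were 1.88, 1.51, 1.06, 0.79 and 1.23 log2 RPKM, and in sacral DRG they were 2.52, 1.96, 2.09, 1.67 and 2.08. In the lumbar DRG of the female donors they were 1.71, 1.92, 3.09, 1.82 and 1.70, and in sacral DRG 1.92, 3.43, 2.34, 1.88 and 2.57. Lumbar F8 stood apart from the other lumbar females, and F8 was again the only donor with the lower value in sacral DRG. The difference was 0.57 ± 0.17 (log2, SE; 1.49-fold; limma adjusted p 0.0504), with a 95% interval from 0.21 to 0.94. By sex it was 0.77 in males and 0.38 in females, with donor SDs of 0.23 and 0.85 (limma adjusted p 0.179 and 0.414). The difference in all donors passed without F8 (0.72, adjusted p 0.00537) and with sample weights (0.60, 0.00675). It was 0.43 (0.146) without F7, 0.51 (0.146) without F10 and 0.40 (0.305) without M5 and F7.

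Tyrobp, whose adaptor product passes on signals from TREM2 and other receptors, had a difference of 0.35 ± 0.16 (log2, SE; adjusted p 0.183) and was higher in sacral DRG in 7 of 10 donors. For C1qc the difference was 0.16 ± 0.11 (adjusted p 0.380), with 6 of 10 donors higher, and for C1qb 0.05 ± 0.10 (adjusted p 0.782), with 5 of 10. The interval for C1qb, -0.16 to 0.26, left out a change as large as that of Mrc1. Over the 20 libraries C1qb ranged from 2.53 to 3.68 log2 RPKM, Csf1r from 1.22 to 2.25 and Cx3cr1 from -0.53 to 1.41, and in each the levels overlapped. In both receptor genes most donors were lower in sacral DRG. Csf1r, the growth factor receptor, had a difference of -0.02 ± 0.11 (adjusted p 0.934; interval -0.25 to 0.22) and was higher in 3 of 10 donors; scaling the libraries to reads outside mitochondrial rRNA turned this to 0.05. Cx3cr1 had -0.22 ± 0.19 (adjusted p 0.485; interval -0.62 to 0.17) and was higher in 2 of 10. None of these 5 genes passed.

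The 3 genes below the filter were compared within donors, and C1qa and Aif1 varied widely. The mean difference over the 10 donors was 0.15 ± 1.92 (log2, SD) for C1qa, 0.20 ± 1.97 for Aif1 and -0.05 ± 0.67 for Ptprc. Each was higher in sacral DRG in 4 of 10 donors, and exact sign-flip permutation tests (two-sided) gave p = 0.812, 0.768 and 0.768. C1qa and Aif1 had 0 to 45 and 2 to 34 reads per library. The size of the Mrc1 difference, 0.62, was below the SD of the donor differences of both genes. The largest C1qa difference, 4.06 in M7, rested on the value set for 0 reads. Whether a difference like that of Mrc1 could be detected at this depth was not tested.

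**Figure D2:**
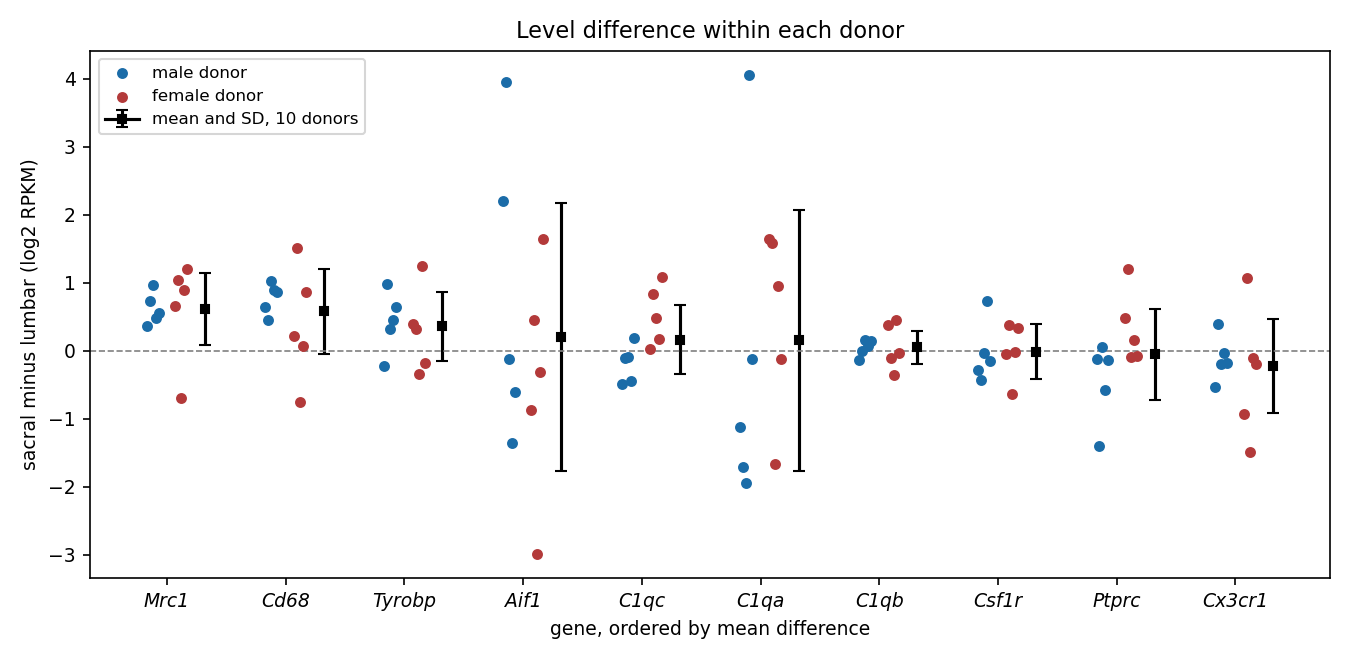
Difference between sacral and lumbar DRG (log2 RPKM) within each of the 10 donors for the 10 macrophage genes, ordered by mean difference, with male donors in blue, female donors in red and the mean and SD in black. Mrc1 and Cd68 lie above 0 in 9 of 10 donors, Cx3cr1 below 0 in 8, and C1qa and Aif1 spread over several log2 units.

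Summed over the 10 genes, the level was 22.0 to 42.1 RPKM in lumbar and 26.7 to 59.9 RPKM in sacral DRG, which overlap. The sum was higher in sacral DRG in 8 of 10 donors, by 0.24 ± 0.29 (log2, SD, n = 10 donors), and was highest in sacral F7.

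Male and female DRG were next compared within each level. The library titles end in running numbers, in separate runs for male and female libraries (that of lumbar M3 has an additional digit). What the numbers stand for is not stated. A sex difference cannot be told apart from a difference between these runs. C1qc was upregulated in female sacral DRG, and no other macrophage gene passed at either level. Of all tested genes 1.01% passed in sacral DRG, 0.289% as higher in females, and 0.33% passed in lumbar DRG, where none of the 7 macrophage genes did. Estimates of female minus male were above 0 for each of the 7 genes at both levels, with exceptions among the alternatives. Cx3cr1 in sacral DRG turned below 0 in 10 of 22 alternatives, such as -0.13 with quantile normalization. Mrc1 did so in 4 of 22 in lumbar DRG, such as -0.06 with sample weights, and in 3 of 22 in sacral DRG. The 7 genes were correlated over the same libraries, so their signs are not independent of each other. Over all tested genes 52.9% were above 0 in lumbar and 46.1% in sacral DRG.

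C1qc in the sacral DRG of the 5 male donors was 1.53, 1.69, 2.18, 1.78 and 1.75 log2 RPKM, and in those of the 5 female donors 2.02, 3.08, 2.69, 2.57 and 3.05. In lumbar DRG it was 2.02, 1.80, 2.27, 2.23 and 1.57 in males and 1.997, 2.24, 2.21, 2.40 and 1.97 in females. In sacral DRG 4 females were above every male, and F3 lay below M5, while in lumbar DRG the sexes overlapped. The difference in sacral DRG was 0.89 ± 0.19 (log2, SE; 1.86-fold; limma adjusted p 0.0274), and in lumbar DRG 0.19 ± 0.19 (adjusted p 0.863). Leaving out any 1 of 8 donors (all but M5 and F3) ended the call, with adjusted p from 0.0633 to 0.108 and values from 0.80 to 0.92. C1qc was higher in sacral than in lumbar DRG in 5 of 5 females, by 0.52 ± 0.16, and in 1 of 5 males, at -0.19 ± 0.16. The test of that interaction gave 0.71 ± 0.22, with a limma p of 0.0046 before and 0.995 after adjustment. No gene passed it, and 3.23% of genes (470) had an unadjusted p under 0.05.

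Tyrobp had a female minus male difference as large as that of C1qc, with a wider error. It was 1.45, 0.92, 1.70, 0.69 and 0.99 log2 RPKM in lumbar DRG of males and 1.89, 2.71, 2.85, 1.61 and 1.89 in those of females. In sacral DRG it was 1.22, 1.90, 2.01, 1.13 and 1.62 in males and 2.27, 3.03, 2.50, 2.84 and 1.72 in females. A single value kept the sexes from separating at each level, F9 below M5 in lumbar DRG and F10 below M3 and M5 in sacral DRG. The difference was 1.04 ± 0.28 in lumbar (adjusted p 0.176) and 0.89 ± 0.28 in sacral DRG (adjusted p 0.131). It rested on 26 to 168 reads per library, and with the mitochondrial rRNA share as a covariate it passed at both levels (adjusted p 0.0230 and 0.0433).

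The remaining tested genes did not pass for sex. The difference of Cd68 was 0.76 ± 0.30 in lumbar and 0.37 ± 0.30 in sacral DRG, with adjusted p 0.484 and 0.563. It was 0.50 in lumbar DRG without F8, whose lumbar library stood apart, and 0.12 in sacral DRG without F7. C1qb had 0.29 ± 0.18 and 0.31 ± 0.18, Csf1r 0.19 ± 0.20 and 0.23 ± 0.20, Cx3cr1 0.24 ± 0.33 and 0.01 ± 0.33, and Mrc1 0.10 ± 0.27 at both.

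**Figure D3:**
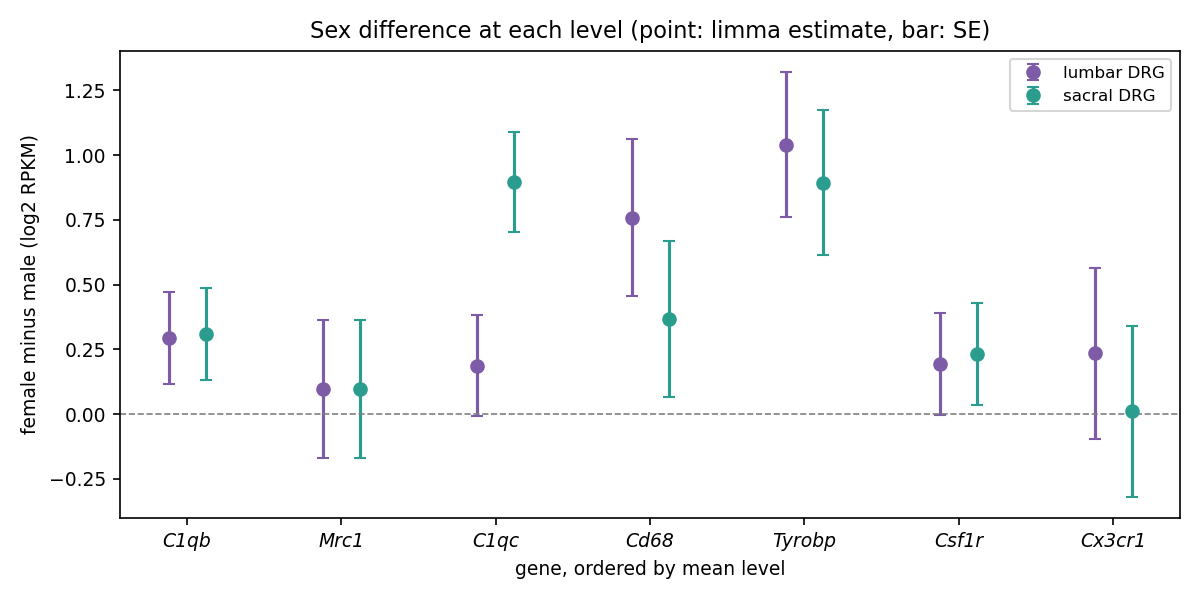
Female minus male difference (log2 RPKM; limma estimate with SE) of the 7 tested macrophage genes in lumbar (purple) and sacral (green) DRG, with 5 donors of each sex at each level. C1qc lies at 0.19 in lumbar and 0.89 in sacral DRG, Tyrobp near 1 at both, and Mrc1 at 0.10 at both.

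Within groups the tested macrophage genes were positively correlated. After the 4 group means were removed, all 21 pairs of the 7 tested genes had a positive Pearson r over the 20 libraries. The median was 0.40, and the range was from 0.10 (C1qb with Cd68) to 0.64 (Mrc1 with Cd68). The C1q chains were barely correlated: C1qb with C1qc had 0.13, and C1qa, below the filter, had 0.02 with C1qb and -0.01 with C1qc. Of all pairs of tested genes 54.1% were positive, with a median r of 0.05, and over all 10 macrophage genes 43 of 45 pairs were. Both libraries of a donor are among these points, and the libraries differed in their mitochondrial rRNA share, with which C1qc had an r of 0.67, Tyrobp 0.64, Mrc1 0.54 and Csf1r 0.10. The median r of all tested genes with that share was -0.29. With the share as a covariate, the level difference of Mrc1 was 0.61 (adjusted p 0.0188) and the sacral sex difference of C1qc 0.83 (adjusted p 0.00399).

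The 5 genes most like the mean of the 7 (group means removed, 20 libraries) were Bgn, the proteoglycan biglycan of connective tissue, at r = 0.90 (Spearman's rho 0.80), Hmmr, a spindle protein and hyaluronan receptor of dividing cells, at 0.89 (0.88), Casc5, a kinetochore protein, at 0.89 (0.89), Bmp2k, a kinase, at 0.88 (0.78), and Atad2, a chromatin regulator, at 0.87 (0.80). None of them was on a macrophage list. All 5 were picked as the highest r among the tested genes outside the 7, so the size of r is no test of a tie. Whether the mitochondrial rRNA share enters these values was not tested. Bgn was upregulated in sacral DRG, by 0.64 ± 0.13 (adjusted p 0.00693), and the other 4 did not pass, with differences from 0.02 to 0.15.

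To set the 10 genes in context, 83 further genes in 10 lists of macrophage function were read. Of these, 39 were tested, and 5 (12.8%, against 6.73% of all genes) passed for level. All 5 were upregulated in sacral DRG. The median difference of the 39 was 0.22 on the log2 scale, and 26 were above 0, against 42.0% of all tested genes. The lists were chosen with earlier results of these data known, so these shares describe them and test no excess over all genes. No gene of these lists passed for sex at either level. The counts below come from the same fit as those above.

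Of the ligands, Csf1, the growth factor that Csf1r binds, had a mean level of 2.25 log2 RPKM and a difference of 0.33 ± 0.13 (adjusted p 0.120). Cx3cl1, which encodes fractalkine, had -0.07 log2 RPKM and a difference of -0.29 ± 0.29 (adjusted p 0.554). None of the 3 tested ligand genes passed, and Il34 was below the filter.

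Among transcription factors 1 of 4 tested genes was upregulated in sacral DRG. Maf, which is used by macrophages and by mechanosensory neurons, had a mean level of 3.01 log2 RPKM and rose by 0.24 ± 0.07 (SE; adjusted p 0.0400), with 9 of 10 donors higher. Runx1, which is used by blood cells and by nociceptors, was highest at 3.71 log2 RPKM and had a difference of -0.02 ± 0.15 (adjusted p 0.945). Spi1, which encodes PU.1 and is named here after its values were seen, was at -1.60 log2 RPKM with 5 to 65 reads per library.

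Receptors that clear cells and complement fragments had 2 of 7 tested genes upregulated. C5ar1, a receptor for the complement fragment C5a, rose from -0.70 ± 0.76 to 0.40 ± 0.60 log2 RPKM, by 1.10 ± 0.25 (adjusted p 0.0120), and the scavenger receptor gene Msr1 rose from -0.30 ± 0.50 to 0.42 ± 0.42, by 0.72 ± 0.18 (adjusted p 0.0240). The receptor kinases Axl and Mertk, which recognise dying cells, were the highest of the list at 2.73 and 1.10 log2 RPKM and did not pass (0.15 ± 0.11 and 0.27 ± 0.20).

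Genes of perivascular macrophages had a list median of 0.58 over the 5 tested of 9 genes, of which 2 passed. Lyve1, a hyaluronan receptor that lymphatic vessels also carry, rose by 0.58 ± 0.14 (adjusted p 0.0165), and F13a1, a coagulation factor chain, by 0.55 ± 0.16 (adjusted p 0.0430). Dab2, an endocytic adaptor that other cells also use, was highest at 3.39 log2 RPKM, with 0.61 ± 0.18 (adjusted p 0.0520). Pf4 and Cbr2 had 0.33 ± 0.31 and 0.62 ± 0.55 (adjusted p 0.527 and 0.501). Folr2, Ms4a7, Clec10a and Cd209f were below the filter, with 341, 772, 47 and 17 reads in all. They were higher in sacral DRG in 5, 6, 5 and 4 of 10 donors. Clec10a and Cd209f had 0 reads in 10 and 15 of 20 libraries. Mrc1 itself is a gene of perivascular macrophages. Genes of microglia, the macrophages of the brain and spinal cord, had none of 4 tested genes past the threshold and a median of 0.27. Olfml3, a secreted protein, had 2.77 log2 RPKM and Tmem119, a membrane protein, 1.89, with differences of 0.33 ± 0.13 and 0.65 ± 0.23 (adjusted p 0.117 and 0.0880). The other 2 tested genes, P2ry12, an ADP receptor of microglia, and Fcrls, had 0.73 and 0.42 log2 RPKM, with differences of -0.25 ± 0.14 and 0.22 ± 0.17. P2ry13, Gpr34 and Sall1 were below the filter but had reads in all 20 libraries, while Siglech had 82 reads in all and none in 7 libraries.

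The general machinery of these cells had no gene past the threshold. Of signalling genes 6 of 15 were tested, with a median of 0.16, and Fcer1g, an adaptor like Tyrobp, and Coro1a, an actin regulator also found in neurons, were highest at 3.31 and 3.22 log2 RPKM. Lysosomal genes were all tested (7 of 7, median -0.07), and Ctsd and Ctsb, proteases of every cell type, had 6.56 and 5.56 log2 RPKM. Of antigen presentation genes only Cd74, the invariant chain of MHC class II, was tested, with 0.78 ± 0.45 (adjusted p 0.293), and H2-Eb1, a class II chain, was next at -0.98 log2 RPKM.

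Transcripts of monocytes were scarce, and those of cytokines ranged widely. None of 5 monocyte genes reached the filter. Ccr2, the receptor that brings monocytes into tissue, was highest at -2.68 log2 RPKM and had 677 reads over all libraries, Plac8 was at -4.07, and the 5 genes summed to at most 1.20 RPKM in any library. Of 9 cytokine genes 2 were tested, and Igf1, a growth factor made by many cells, led at 3.65 log2 RPKM with a difference of 0.10 ± 0.10. Ccl12, a monocyte chemoattractant, was the other at 0.33 log2 RPKM, with 0.39 ± 0.35 (adjusted p 0.504). Ccl2 and Cxcl10 were below the filter but had reads in all 20 libraries, 566 and 806 in sum. The inflammatory genes Il1b, Ccl4, Cxcl2 and Tnf, named after their values were seen, had 0 reads in 18, 18, 16 and 13 of 20 libraries.

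**Figure D4:**
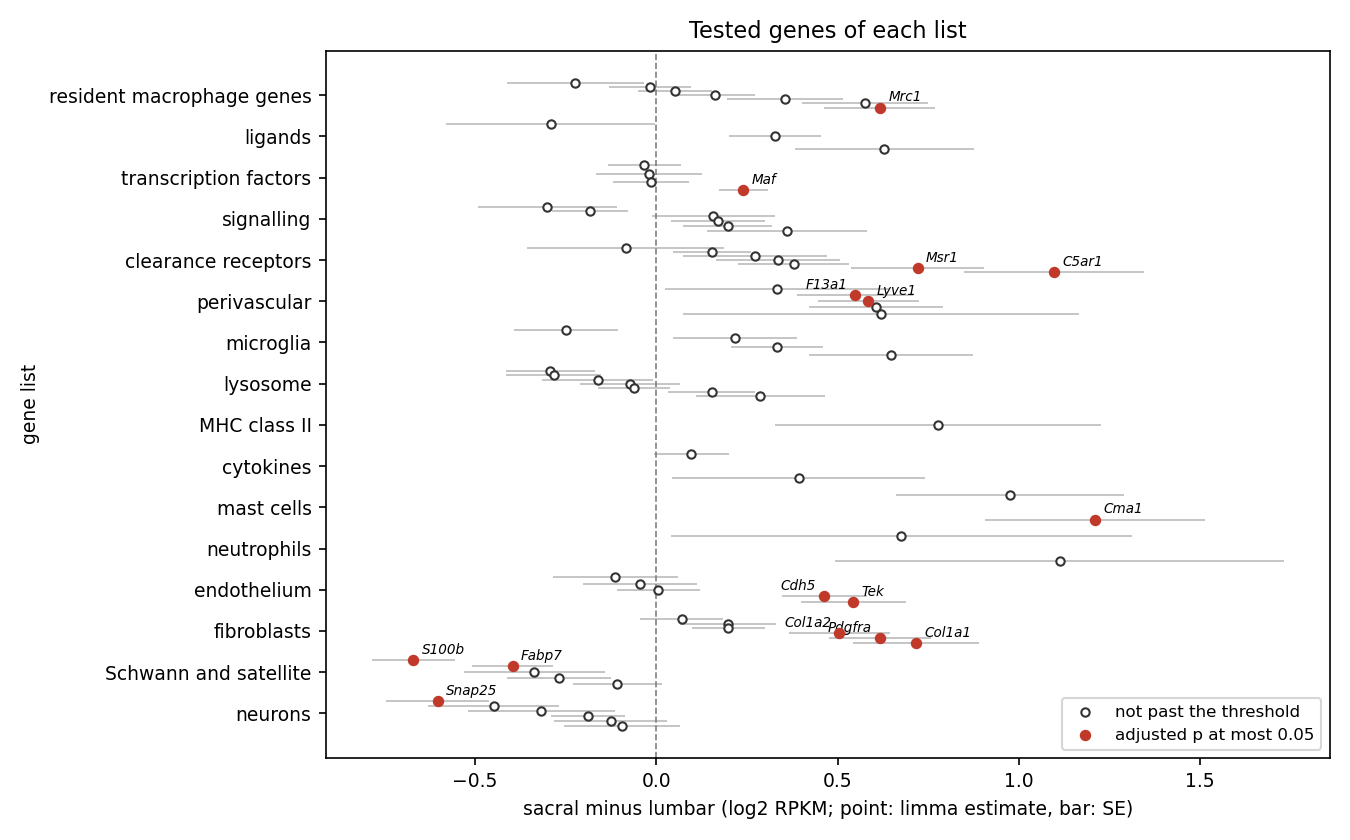
Sacral minus lumbar difference (log2 RPKM; limma estimate with SE) of each tested gene in the macrophage lists (the first 10 rows) and the lists of other cells with 2 or more tested genes except red cells (the last 6), with genes past an adjusted p of 0.05 in red. All 6 called macrophage genes, Mrc1 among them, lie to the right of 0, as do those of mast cells, endothelium and fibroblasts, while those of glia and neurons lie to the left.

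Genes of other cells moved between the levels too, where 2.7% of all tested genes passed as higher in sacral DRG. All 6 fibroblast genes were tested and 3 were upregulated in sacral DRG (Col1a1 by 0.72 ± 0.17, Pdgfra by 0.62 ± 0.14 and Col1a2 by 0.51 ± 0.14). Their sum was 190 to 438 RPKM in lumbar and 264 to 590 RPKM in sacral DRG and was higher in 9 of 10 donors. Of 5 tested endothelial genes 2 passed, Tek by 0.54 ± 0.14 and Cdh5 by 0.46 ± 0.12, while Pecam1, Kdr and Emcn had -0.11 ± 0.17, -0.04 ± 0.16 and 0.01 ± 0.12. The median of the list was 0.01, and its sum, which was mostly Cdh5 (28.3 RPKM), was 26.1 to 50.7 against 35.7 to 61.9 RPKM and higher in 9 of 10 donors. Of mast cell genes 1 of 2 tested passed, the protease gene Cma1 by 1.21 ± 0.30, and the sum of all 6 was 1.01 to 5.91 against 3.62 to 11.6 RPKM, with 9 of 10 donors higher.

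In the opposite direction, in which 4.03% of all tested genes passed, 2 of 5 Schwann and satellite cell genes were lower in sacral DRG. The differences were -0.67 ± 0.11 for S100b and -0.40 ± 0.11 for Fabp7. The sum of the 5 genes was 202 to 310.5 against 148 to 257 RPKM. Of 6 neuronal genes 1 was lower, Snap25 with a difference of -0.60 ± 0.14, and their sum was 368 to 852 against 188 to 730 RPKM. Genes of neutrophils (2 of 8 tested) and red cells (5 of 7 tested) had none past the threshold, and none of 9 lymphocyte genes reached the filter. The called fibroblast and mast cell genes, Tek and Cdh5 were higher at the same level as Mrc1 and the other called macrophage genes, and their part in those differences was not tested.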

How the data were processed

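Whole E18.5 DRG RNA was amplified to cDNA and sequenced. The authors aligned reads to mm9 with Subread 1.18 or later, counted uniquely mapped reads with featureCounts, applied voom (limma 3.26.9) with TMM scaling (edgeR 3.12.1), and deposited the values as log2 RPKM. Each library has the same median, 0.930302. With exon lengths from GENCODE M1, 98.27% of values were within 0.05 of a whole read, and reads are given for the 28324 genes where all were; depths are sums over these. A blank was set to 0.5 reads. Because the values are not counts, limma 3.58.1 (R 4.3.3) was run on the deposited log2 scale over the 20 libraries, with 4 group means, donor as a block (duplicateCorrelation, 0.342), a mean-variance trend and Benjamini-Hochberg adjustment over 14529 genes, after a test on simulated data. The labels pair the libraries by donor. Genes below the filter had exact sign-flip permutation tests. Intervals are 95% limits of limma differences. Read limits cover counting error only.

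The 10 genes and all lists were chosen with earlier results of these data known. Genes named were the 10, and for each macrophage list its 2 highest levels and its smallest adjusted p in each direction among calls; any other gene, those of other cells included, was named after its values were seen. All listed symbols but Ahsp were found, 4 of them under older names (Sfpi1, Sykb, Emr1 and Chi3l3). Alternatives varied the block, weights, blanks, pseudocount, filter, scaling, voom on recovered reads, the mitochondrial rRNA covariate and the donors. Some list genes are not reported here and enter no list count.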

Additional observations from a re-analysis of the deposited data

Results flagged for a closer look

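Of the 40 sets of 5 libraries examined (10 genes in 4 groups), 3 held a library far from the other 4, where chance gives about 1 in 20. Csf1r in the sacral DRG of male donor M7 was 1.995 log2 RPKM, against 1.22 to 1.41 in the other males. C1qa in the lumbar DRG of the same donor was -5.89, the value set for 0 reads, against -1.38 to -0.09. Cd68 in the lumbar DRG of female donor F8 was 3.09, against 1.70 to 1.92 in the other females. The distance covered 0.758, 0.779 and 0.840 of the whole range of the set, where the limit for 5 libraries is 0.71. What sets these libraries apart was not tested.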

How the results depend on the processing

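Of 537 recomputed values of single macrophage genes, 486 kept their direction and side of the threshold, 32 turned direction, 13 fell below the threshold and 6 rose past it. Without the donor block (replicate block), 154 genes passed for level in place of 978 and none of the 7 macrophage genes in place of 1 (Mrc1, adjusted p 0.107); with donor as a fixed term Mrc1 passed (0.0423). For level, sample weights gave 2998 genes and 3 macrophage genes, no filter 507 and 0, leaving out each donor 406 to 1608 and 0 to 2, and leaving out M5 and F7 together, chosen after seeing the data, 265 and 0. For sex in lumbar DRG, 48 genes and no macrophage gene became 197 and 1 with weights, 90 with quantile normalization, 228 and 1 with the mitochondrial rRNA covariate, 14 to 81 without 1 donor and 74 without M5 and F7. For sex in sacral DRG, 147 genes and 1 macrophage gene became 751 with weights, 94 with no filter, 345 with quantile normalization, 702 and 2 with the covariate, 55 to 444 and 0 to 1 without 1 donor, and 331 without M5 and F7. Differences near 0 changed sign. The level difference of Csf1r was 0.0475 scaled to reads outside mitochondrial rRNA and -0.114 to 0.0609 without 1 donor, and that of C1qb -0.0238 with weights. Female minus male for Mrc1 in lumbar DRG was -0.0619 with weights, -0.0673 to 0.233 without 1 donor and -0.00796 without M5 and F7, and in sacral DRG -0.114 to 0.258 and -0.0309. For Cx3cr1 in sacral DRG it was -0.104 with weights, -0.128 with quantile normalization, -0.00185 with voom, -0.0449 with the covariate, -0.277 to 0.209 without 1 donor and -0.216 without M5 and F7. Below the filter, C1qa was -0.0124 with a pseudocount of 1 RPKM and -0.281 to 0.386 without 1 donor, Aif1 -0.221 to 0.551, and Ptprc 0.0135 with the pseudocount and with the other scaling and -0.192 to 0.0984. Scaling to reads outside mitochondrial rRNA added 0.07 to every level difference, 0.07 to lumbar and 0.14 to sacral sex differences. The causes were not tested. Depth is lowest for Aif1 and C1qa, with 234 and 306 reads in all.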
